A study of Mus musculus with 6 samples.

Results

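The 10 genes described here encode a TGF-beta ligand, its receptors and an activin receptor, the Smad proteins that carry the signal to the nucleus, and the inhibitors of these Smads. They are Tgfb1, Tgfbr1, Tgfbr2, Acvr2a, Smad2, Smad3, Smad4, Smad7, Ski and Skil, and were taken by symbol from the deposited normalized table and by NCBI gene identifier from the table of read counts. All 10 were found among the 27179 genes of the count table, and all 10 were among the 8195 genes whose counts were high enough to be tested. RNA-Seq had been performed on long-term HSCs (LT-HSCs) sorted from mouse bone marrow as CD150+CD48-LSK cells, with 3 libraries from WT mice and 3 from Foxm1 heterozygous (Foxm1 HET) mice, all of strain C57BL/6 and 8 weeks of age. Foxm1 is a forkhead transcription factor that acts in the cell cycle. The Foxm1 HET libraries are titled FoxM1flPlus, which names 1 floxed and 1 normal allele and no Cre, while their genotype label reads Foxm1 heterozygous. The study deleted the floxed allele with Tie2-Cre, which acts in endothelial and blood cells, or with the inducible Mx1-Cre, and its RNA-Seq methods do not say which was used here. They also do not say whether the WT mice of these libraries carried a floxed allele, as the controls of the Tie2-Cre experiments did. The question put to the data was whether loss of 1 Foxm1 allele changed the transcripts of this pathway in LT-HSCs.

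TGF-beta is secreted in a latent form and has to be released before it can bind its receptor. The type II receptor then activates the type I receptor, which phosphorylates Smad2 and Smad3. These join Smad4 and enter the nucleus to control transcription, while Smad7 blocks the receptor and Ski and Skil hold the Smad complex in a repressed state. In bone marrow the pathway is known as a brake on HSC division that helps to keep these cells quiescent.

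None of the 10 genes passed the test for a difference between WT and Foxm1 HET LT-HSCs. In edgeR's quasi-likelihood test, 0 of 10 had an adjusted p under 0.05 (lowest 0.892), where 0.329% of all genes tested did, and 0 of 10 had an unadjusted p under 0.05, where 6.03% of all genes did. The 3 WT and 3 Foxm1 HET libraries overlapped in log2 CPM for every one of the 10 genes, and 8.68% of all genes tested showed no overlap. A list of 10 genes is too short for a count of 0 to stand apart from such shares. The fitted change was above 0 for 3 genes and below 0 for 7 (6 above and 4 below without WT replicate 3, 1 above and 9 below without Foxm1 HET replicate 2), with a median of -0.83 on the log2 scale against -0.26 over all genes tested. This median moved with the processing, to -0.07 against 0.10 over all genes with library size only, to -0.09 against 0.07 in the normalized table, and to 0.25 against 0.05 without WT replicate 3. All 10 of the 95% intervals included 0, and the narrowest, that of Smad3, was 6.27 log2 units wide. For the 9 genes other than Acvr2a, increases as well as decreases of more than 1 log2 unit lay within the interval, and that of Acvr2a reached only 0.47 above 0.

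The libraries held between 14573002 and 25798509 counted reads. The smallest was Foxm1 HET replicate 2, in which 4467 genes reached 10 reads, against 5963 to 9894 in the others. In that library 50.1% of all genes tested had 10 reads or fewer, against 4.84% to 33.7% in the other 5. Foxm1 itself had 1182, 2615 and 2942 reads in WT replicates 1 to 3 and 659, 5 and 742 in Foxm1 HET replicates 1 to 3, with a log2 fold change of -3.30 (SE 2.33, edgeR's quasi-likelihood test, adjusted p = 0.961). Genes known to mark LT-HSCs summed to 2711 to 6323 CPM in WT against 3914 to 5486 CPM in Foxm1 HET libraries, with reads for 11 of 11. For each marker list, a gene with reads is one with any read over all libraries together. Of the 11 LT-HSC genes, 9 passed the low-count filter. The list includes Kit and Ly6a, which mark all LSK cells. However, Slamf1, which encodes the CD150 used in the sort, had 2, 1572 and 0 reads in WT against 8, 0 and 543 in Foxm1 HET. Neutrophil genes had reads for 8 of 8 and summed to 5261 to 15753 CPM in WT against 1362 to 8366 CPM in Foxm1 HET. B cell genes summed to at least 12.6 CPM in each WT library and at most 6.68 CPM in each Foxm1 HET library, with reads for 3 of 6 and with Cd79a, Ebf1 and Ms4a1 at 0 throughout. Erythroid genes, with reads for 6 of 7 in the table, summed to 74.3 to 119 CPM in WT against 15.9 to 36.4 CPM in Foxm1 HET. All marker sums here were scaled to counted reads only, without the TMM factors used for the CPM of single genes below. The factor was 1.13 for WT replicate 1 (74.3 CPM) and 0.453 for Foxm1 HET replicate 2 (36.4 CPM). Dividing by these factors puts that Foxm1 HET library above that WT library, so the erythroid separation depended on the scaling. Multipotent progenitor, megakaryocyte, macrophage, T cell and endothelial or stromal genes had summed levels that overlapped between genotypes, with the markers C1qa, C1qb, Cd3d, Cd3g and Lepr at 0 in every library. No gene of these marker lists had an adjusted p under 0.05 by edgeR. The part of these marker and depth differences in the values below was not tested. In sorted cells measured in bulk, fewer cells that express a gene and less RNA per cell cannot be told apart.

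**Figure D1:**
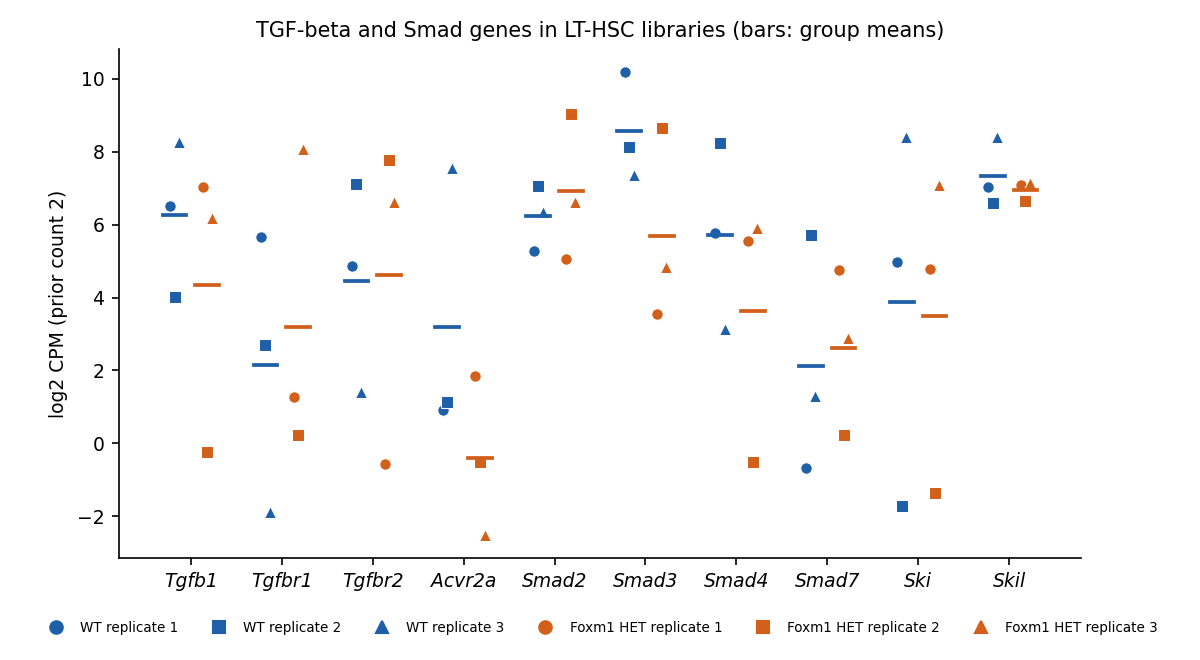
Level of each of the 10 genes in each library, as log2 CPM with a prior count of 2, with WT in blue, Foxm1 HET in orange, a symbol for each replicate number and a bar at each group mean. The genotypes overlapped for all 10 genes, the Skil points lay close together (SD within a genotype 0.70), and those of Ski were spread most widely (4.77).

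Tgfb1 (NCBI gene 21803, GRCm38 chr7:25687002-25704996, plus strand) encodes TGF-beta 1, the main TGF-beta of blood cells. Its reads were 1995, 361 and 4886 in WT replicates 1 to 3 and 5001, 5 and 3019 in Foxm1 HET replicates 1 to 3. Scaled to library size with the TMM factors, these were 90.2, 16.0 and 305 CPM in WT against 131, 0.772 and 72.2 CPM in Foxm1 HET. Thus 2 of the Foxm1 HET libraries lay within the WT range, and Foxm1 HET replicate 2 lay far below every other library. On the log2 scale the mean CPM was 6.25 ± 2.14 (SD, n = 3) in WT against 4.33 ± 3.97 (SD, n = 3) in Foxm1 HET, and the fitted log2 fold change was -1.01 (95% interval -4.80 to 2.77). The exact permutation test over libraries, two-sided, gave p = 0.6, where 0.1 is the smallest p that 3 libraries against 3 can give. Tgfb1 had the highest median level per transcript length of the 10 genes.

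Tgfbr2 (gene 21813, chr9:116087695-116175363, minus strand) encodes the type II receptor that binds the ligand. Its reads were 647, 3106 and 41 in WT against 23, 1416 and 4127 in Foxm1 HET, so that each genotype had 1 library with few reads (41 and 23) and 1 with many (3106 and 4127). The log2 fold change was 0.91 (95% interval -3.08 to 4.90), and the exact permutation test gave p = 1.0. Tgfbr1 (gene 21812, chr4:47353305-47414924, plus strand) encodes the type I receptor kinase that acts next. It had 1127, 145 and 3 reads in WT against 89, 7 and 11171 in Foxm1 HET. Foxm1 HET replicate 3 alone held most of the reads, and the other 5 libraries ranged from 3 to 1127. The log2 fold change of 2.23 (95% interval -2.32 to 6.78, exact permutation p = 0.8) became -3.38 without Foxm1 HET replicate 3, the largest change of sign among the 10 genes when 1 library was left out.

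Acvr2a (gene 11480, chr2:48814109-48903264, plus strand) encodes a type II receptor for activins, ligands of the TGF-beta family. Its reads were 40, 48 and 2975 in WT against 134, 4 and 4 in Foxm1 HET. The level of WT replicate 3 was 186 CPM, while the other 5 libraries had between 0.0956 and 3.52 CPM. The fitted log2 fold change, -5.48 (SE 3.03, 95% interval -11.42 to 0.47), was the largest of the 10 genes, with an adjusted p of 0.892 by edgeR's quasi-likelihood test and p = 0.3 in the exact permutation test. Without WT replicate 3 it was -0.47, so that 1 library carried the difference. Of the exon bases of Acvr2a, 8.99% are shared with the neighbouring gene Orc4, and the files do not say how reads there were counted. Orc4 had 4 reads in WT replicate 3, the library in which Acvr2a was highest.

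Smad2 and Smad3 encode the Smads phosphorylated by the TGF-beta and activin type I receptors. Smad2 (gene 17126, chr18:76241701-76311747, plus strand) had 860, 3007 and 1300 reads in WT against 1272, 3381 and 4150 in Foxm1 HET. It was detected in every library, with 33.4 to 133 CPM in 5 of them and 522 CPM in Foxm1 HET replicate 2. Its log2 fold change was 1.37 (95% interval -2.15 to 4.89, exact permutation p = 0.7) and became -0.26 without that library.

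Smad3 (gene 17127, chr9:63646767-63757994, minus strand) had 25486, 6312 and 2619 reads in WT against 447, 2590 and 1192 in Foxm1 HET. As raw reads, each Foxm1 HET library was therefore below each WT library, by a margin of 29 reads between Foxm1 HET replicate 2 and WT replicate 3. Scaled to library size the genotypes overlapped, at 1152, 279 and 164 CPM in WT against 11.7, 400 and 28.5 CPM in Foxm1 HET. Foxm1 HET replicate 2 was then above 2 of the WT libraries, while Foxm1 HET replicates 1 and 3 were below all 3. The TMM factor of Foxm1 HET replicate 2 was 0.453, the lowest of the 6. On the log2 scale the mean CPM was 8.55 ± 1.45 (SD, n = 3) in WT against 5.68 ± 2.64 (SD, n = 3) in Foxm1 HET. Fitted over all 6 libraries, the log2 fold change was -1.86 (SE 1.60, 95% interval -4.99 to 1.28), with an adjusted p of 0.985 by edgeR's quasi-likelihood test and p = 0.3 in the exact permutation test. Without Foxm1 HET replicate 2 the log2 fold change was -4.64, with an unadjusted p of 0.00723 and an adjusted p of 1.0 in edgeR, and the genotypes no longer overlapped, as for 19.3% of all genes in that fit. Without WT replicate 1 it was -0.63.

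Acvr2a and Smad3 were the members whose fitted change kept its sign in each of the 6 fits with 1 library left out. Their promoters are shown for that reason, as the 250 bases before the RefSeq start (GRCm38.p6), 5′ to 3′ on the strand of the gene, with each AGAC or GTCT in capitals, the short box that Smad3 and Smad4 bind. The Acvr2a stretch is chr2:48813859-48814108 (plus strand) and the Smad3 stretch is chr9:63757995-63758244 (minus strand).
Acvr2a: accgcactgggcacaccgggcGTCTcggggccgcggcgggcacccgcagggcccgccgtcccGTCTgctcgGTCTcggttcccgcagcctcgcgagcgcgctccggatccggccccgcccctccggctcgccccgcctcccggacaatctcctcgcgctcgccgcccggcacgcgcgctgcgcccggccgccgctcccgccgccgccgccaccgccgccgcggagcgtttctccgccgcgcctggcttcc
Smad3: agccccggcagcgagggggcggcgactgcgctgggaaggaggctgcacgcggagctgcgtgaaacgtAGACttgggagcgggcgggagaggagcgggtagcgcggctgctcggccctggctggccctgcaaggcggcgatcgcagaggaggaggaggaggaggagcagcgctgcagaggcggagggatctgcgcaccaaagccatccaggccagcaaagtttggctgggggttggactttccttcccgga
The box occurred 3 times before Acvr2a and 1 time before Smad3. RefSeq windows of 250 bases before to 50 bases after a start were at hand for 6 of the 10 genes, as 7 windows. The box, read on both strands, was in 5 of 7, against 82.9% of all 32851 windows, so that its presence sets no gene apart. The forkhead core TAAACA, or TGTTTA on the other strand, was in 0 of 7, against 12.0% of all windows. A match is a description of the letters and not a bound site, and these counts say nothing of where Foxm1 or the Smads bind.

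Smad4 (gene 17128, chr18:73639013-73703741, minus strand) encodes the common partner of the receptor-activated Smads. Its reads were 1214, 6832 and 141 in WT against 1778, 4 and 2491 in Foxm1 HET. Foxm1 HET replicates 1 and 3 lay within the WT range and Foxm1 HET replicate 2 was near 0. The log2 fold change was -1.78 (95% interval -5.88 to 2.33, exact permutation p = 0.6), and it was 0.33 without WT replicate 2, the library with the most reads.

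Smad7 (gene 17131, chr18:75367365-75395934, plus strand) encodes the inhibitory Smad, which is itself induced by TGF-beta. It had 12, 1181 and 38 reads in WT against 1025, 7 and 306 in Foxm1 HET, so that low and high libraries occurred in both genotypes. Its direction depended on the estimate. The fitted log2 fold change was -0.64 (95% interval -6.15 to 4.87), while the mean on the log2 CPM scale was 2.11 ± 3.27 (SD, n = 3) in WT against 2.62 ± 2.28 (SD, n = 3) in Foxm1 HET (exact permutation p = 0.9).

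Ski (gene 20481, chr4:155154075-155222535, minus strand) and Skil (gene 20482, chr3:31095061-31122577, plus strand) encode related corepressors that bind Smad complexes. Ski had 690, 5 and 5346 reads in WT against 1044, 2 and 5609 in Foxm1 HET. In each genotype replicate 2 was near 0 and replicate 3 the highest, and the log2 fold change was -1.18 (95% interval -5.11 to 2.76, exact permutation p = 0.9). Skil, by contrast, had 2862, 2165 and 5417 reads in WT against 5133, 645 and 5902 in Foxm1 HET. These were 129, 95.8 and 339 CPM in WT against 135, 99.6 and 141 CPM in Foxm1 HET, the most even values of the 10 genes. On the log2 scale the mean CPM was 7.33 ± 0.95 (SD, n = 3) in WT against 6.95 ± 0.27 (SD, n = 3) in Foxm1 HET, and the log2 fold change was -0.59 (95% interval -4.03 to 2.86, exact permutation p = 0.9). The interval of the fit rests on a dispersion shared over genes and was wide for Skil in spite of its narrow spread.

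**Figure D2:**
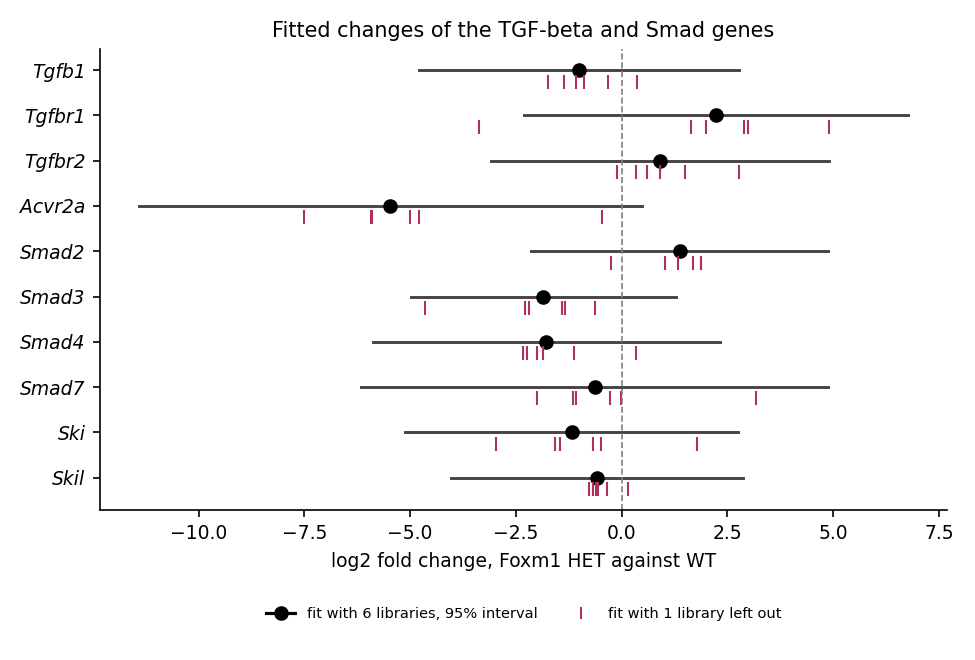
Fitted log2 fold change of Foxm1 HET against WT for each gene (black point) with its 95% interval (line) and the values of the 6 fits that each leave out 1 library (red ticks). Every interval crossed 0, and the ticks of 8 genes lay on both sides of 0, with Acvr2a (-7.50 to -0.47) and Smad3 (-4.64 to -0.63) as the exceptions.

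The spread between libraries of the same genotype exceeded the difference of the log2 CPM means for 8 of the 10 genes, Acvr2a and Smad3 being the others. The fitted log2 fold change of Smad3, -1.86, was smaller in size than its SD of 2.13. The SD of log2 CPM within a genotype ran from 0.70 for Skil to 4.77 for Ski, with a median of 3.10 against 3.13 over all genes tested. Of the 60 values (10 genes in 6 libraries), 9 were at 10 reads or fewer, in 6 of the genes, and 6 of these 9 were in Foxm1 HET replicate 2. In that library Tgfb1, Tgfbr1, Acvr2a, Smad4, Smad7 and Ski had at most 7 reads each, while Tgfbr2, Smad2, Smad3 and Skil had 645 to 3381. The share of members with at least 1 such library, 60.0%, compares with 70.1% over all genes tested. The members thus had about the same median spread as all genes tested, a comparison that was not matched for level. In WT the mean log2 CPM was 4.99 over the members against 3.0 over all genes tested.

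**Figure D3:**
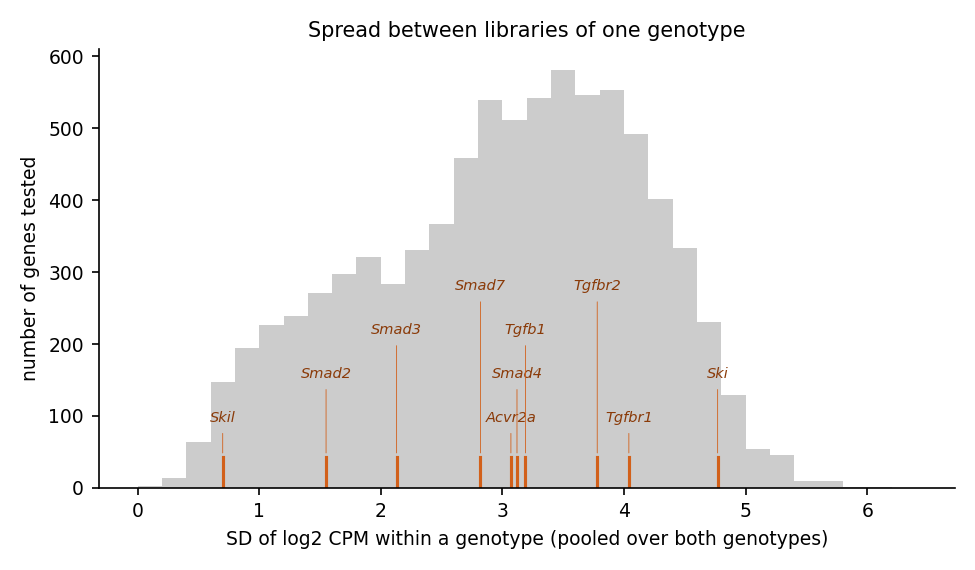
Number of genes tested (grey bars) by the SD of log2 CPM within a genotype, with the 10 genes marked by orange ticks. The members covered most of the range of all genes, from Skil at 0.70 to Ski at 4.77, with medians of 3.10 for the members and 3.13 for all genes.

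The mean log2 CPM over the 10 genes was 5.05, 4.89 and 5.02 in WT replicates 1 to 3 and 4.04, 2.99 and 5.28 in Foxm1 HET replicates 1 to 3. The WT libraries were close together, although the single genes behind this mean ranged over as much as 10.11 log2 units among them (Ski), and the Foxm1 HET libraries lay on both sides of them. Over all genes tested the same mean was lowest in Foxm1 HET replicate 2 as well, at 1.99 against 2.61 to 3.87 in the other libraries. The genes whose profile over the 6 libraries was most like the mean of the 10 were Minos1 (Pearson's r = 0.997), Map4k5 (r = 0.991) and Sh3pxd2b (r = 0.988). These values are a description over 6 libraries that share depth and composition, and all 3 genes had at most 1 read in Foxm1 HET replicate 2.

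Per transcript length, the order of the medians over the 6 libraries was Tgfb1 (118 TPM), Smad3 (62.3), Skil (54.5), Smad4 (41.6), Tgfbr2 (29.6), Smad2 (23.2), Ski (14.7), Smad7 (3.59), Tgfbr1 (1.94) and Acvr2a (0.808). Here TPM was computed from the counts and the deposited gene lengths. The ranges of each pair of neighbours in this order overlapped, so that neighbours did not differ beyond their spread. Even the lowest, Acvr2a, reached 48.8 TPM in 1 library, and the highest, Tgfb1, was at 0.360 TPM in another. Skil (14.5 to 81.3 TPM), Smad2 (10.2 to 55.8 TPM) and Smad3 (7.23 to 543 TPM) were the members above 1 TPM in every library.

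Among 85 other genes of the pathway, 51 passed the filter on low counts, with 0 of 51 at an adjusted p under 0.05. Their fitted change was above 0 for 21 and below 0 for 30, with a median of -0.34 on the log2 scale. This split depended on the processing, with 24 above and 27 below 0 under RLE scaling, 25 above and 26 below with library size only, 26 above and 25 below in limma-voom, and 30 above and 21 below both in the normalized table and with the replicate block. Tgfb3 and Ltbp3 had an unadjusted p under 0.05, and Tgfb3 and Trim33 had genotypes that did not overlap in log2 CPM. Each count, 2 of 51, was a smaller share than the 6.03% and the 8.68% of all genes tested, and these genes are described because a rule on single genes chose them. A further 19 genes had no read in any library, among them the ligands Tgfb2, Bmp2, Bmp4, Bmp6 and Bmp7, the type I receptors Bmpr1a and Bmpr1b, and the TGF-beta targets Ccn2 and Cdkn2b. A count of 0 allows up to 3 reads, or 0.116 to 0.206 CPM of all counted reads in these libraries.

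Tgfb3, another TGF-beta ligand, had 1, 2 and 1 reads in WT against 24, 1382 and 929 in Foxm1 HET. It was near 0 in all 3 WT libraries and above them in all 3 Foxm1 HET libraries, of which replicate 1 was much lower than the others. Tgfb3 passed the low-count filter through its Foxm1 HET libraries alone. A gene near 0 in WT passes only with enough reads in all 3 Foxm1 HET libraries. The absence of overlap thus followed from the filter, and the values given here for Tgfb3 are a description. In the normalized table the genotypes overlapped, at log2 values of 0.24, 0.75 and 0.83 in WT against 0.30, 6.48 and 3.35 in Foxm1 HET. The summed reads, 4 in WT against 2335 in Foxm1 HET, gave a ratio per counted read of 573 (95% exact binomial interval 224 to 2105), an interval that covers counting error only. The spread between the Foxm1 HET libraries went well beyond counting error, and edgeR's quasi-likelihood test gave an adjusted p of 0.321 (fitted log2 fold change 10.12, SE 3.56, a value that depends on the prior count because WT was near 0). The adjusted p was 1.53e-05 with DESeq2 and 0.119 to 1.0 with the other alternatives. In the exact permutation test p was 0.1, the smallest it can give, which the absence of overlap fixes.

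Ltbp3, which binds latent TGF-beta in the matrix, had 502, 7711 and 10233 reads in WT against 97, 32 and 2260 in Foxm1 HET. The lowest WT library and the highest Foxm1 HET library overlapped. The log2 fold change was -4.03 (SE 1.93), with an unadjusted p of 0.0374 and an adjusted p of 0.773 by edgeR's quasi-likelihood test. The fitted changes of all 5 release genes tested, Ltbp3, Nrros, Furin, Thbs1 and Itgav, were below 0 (-4.03 to -0.86). None passed the adjusted threshold. This direction was not stable for Furin and Itgav, whose log2 CPM means were higher in Foxm1 HET by 2.25 and 0.56. Both were above 0 in limma-voom and with the replicate block. Furin was also above 0 in the normalized table and without WT replicate 2, and Itgav without WT replicate 1. Trim33, a ubiquitin ligase that binds Smad2, Smad3 and Smad4, had 2431, 21881 and 3491 reads in WT against 2043, 202 and 1906 in Foxm1 HET. Each Foxm1 HET library was below each WT library, at 31.2 to 53.6 CPM against 110 to 968 CPM. The log2 fold change was -3.31 (SE 1.78), with an adjusted p of 0.880 by edgeR's quasi-likelihood test. The difference of the log2 CPM means, -2.75, was larger than the SD within a genotype, 1.17. Trim33 was named for its absence of overlap in these same values, so this comparison adds no support. The exact permutation p was 0.1, which the absence of overlap fixes and which is the smallest it can give.

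The other roles held no gene that passed the test. Receptors had 2 genes above and 2 below 0, with Eng, the TGF-beta coreceptor endoglin, the most even at 51.3 to 150 CPM in WT against 84.2 to 196 CPM in Foxm1 HET. The Smads of the BMP branch, Smad1 and Smad5, had log2 fold changes of -0.81 and 0.30. Smad ligases, phosphatases and shuttling genes had 3 above and 7 below 0, nuclear partners and corepressors 5 above and 6 below, and the non-Smad arm 3 above and 2 below.

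The targets of the pathway tested numbered 8, with 4 above and 4 below 0. They were not separated into targets that the pathway raises and targets that it lowers, so this split does not measure pathway activity. Among these 8 are the cyclin-dependent kinase inhibitors p21, p27 and p57, which restrain the cell cycle and are encoded by Cdkn1a, Cdkn1b and Cdkn1c. Cdkn1a had 301, 39 and 0 reads in WT against 349, 47 and 264 in Foxm1 HET, and its log2 fold change was 0.57 (adjusted p = 0.998, edgeR's quasi-likelihood test). Cdkn1b had 305, 38 and 68 reads in WT against 287, 14 and 121 in Foxm1 HET. Cdkn1c, which is high in quiescent HSCs, had 2, 993 and 4 reads in WT against 1524, 0 and 13 in Foxm1 HET, so that 1 library of each genotype held nearly all of its reads. The genotypes overlapped for all 3 inhibitors.

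**Figure D4:**
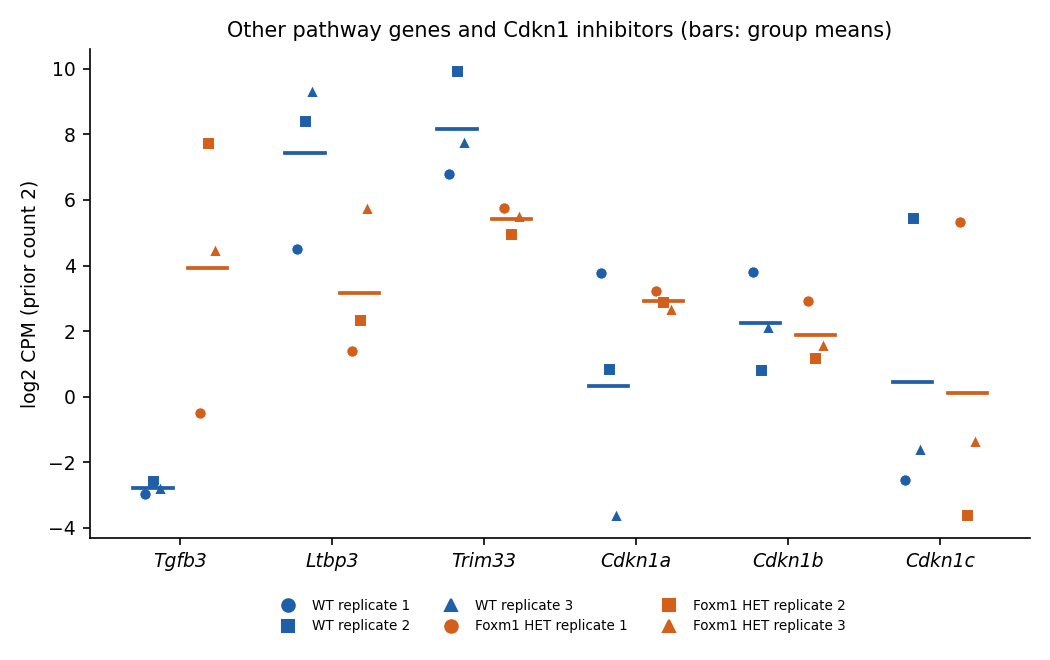
Level per library, as log2 CPM with a prior count of 2, of Tgfb3, Ltbp3 and Trim33 and of the 3 Cdkn1 inhibitors, with WT in blue, Foxm1 HET in orange and a bar at each group mean. Tgfb3 was higher and Trim33 lower in each Foxm1 HET library than in each WT library, and the genotypes overlapped for the other genes. With WT near 0, Tgfb3 could pass the low-count filter only without overlap.

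**Figure D5:**
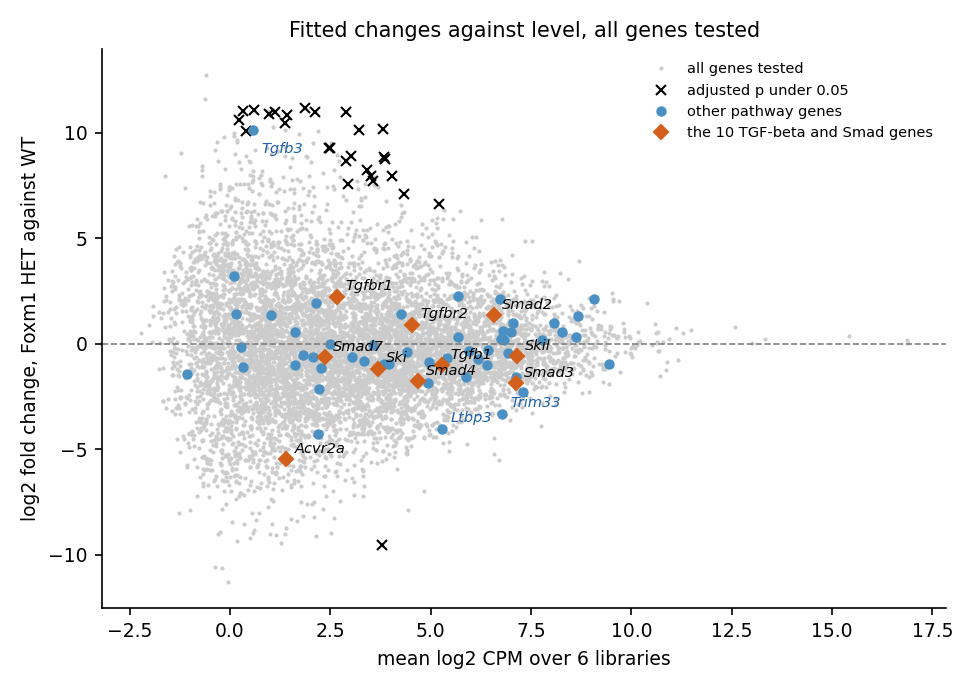
Fitted log2 fold change of Foxm1 HET against WT by mean log2 CPM for all 8195 genes tested (grey), with the 27 genes at an adjusted p under 0.05 as crosses, the 51 other pathway genes in blue and the 10 members in orange. None of the members or other pathway genes is among the crosses.

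All 10 genes were also in the deposited normalized table, and WT and Foxm1 HET overlapped for each of them. Of its 12179 genes, 9.64% showed no overlap, a share from which 0 of 10 does not stand apart.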

How the data were processed

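LT-HSC RNA was measured in 3 WT and 3 Foxm1 HET libraries, grouped by the genotype label. The labels name a stranded total RNA kit with ribosomal depletion and the paper a Clontech kit. The authors aligned reads to GRCm38 with STAR 2.7.2b and deposited raw read counts per gene. The counting program and its use of strand are not given in the sources used here. They also deposited a normalized log2 table, whose scaling is not given in the sources used here and which served as an alternative. The methods give 3 pairs of mice and the labels do not tie libraries to mice, so p-values measure the spread between these libraries. The 10 genes, the pathway and marker lists and the named genes were chosen with earlier results of these data known. Named were the 10 members, other pathway genes with an unadjusted p under 0.05, or with non-overlapping genotypes and at least 10 CPM on average, the 3 most alike profiles, and Foxm1. Other genes, such as the Cdkn1 inhibitors and Eng, were named after their values were seen.

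Counts were analysed in R 4.3.3 with edgeR 4.0.16 (default low-count filter, TMM, quasi-likelihood test, Benjamini-Hochberg adjustment over 8195 genes). SEs were derived from the F statistic of each gene. Log2 CPM used a prior count of 2. Exact permutation tests were two-sided (scipy 1.17.1). PCR duplicates cannot be told apart in these counts, so counting error understates the true error. The biological coefficient of variation was 1.66. Gene symbols covered 94.1% of identifiers, 12179 from the normalized table and the others from RefSeq. The edgeR fit with TMM was tested on simulated counts, with a pass mark set only at a spread far below that of these data. The other fits were not tested in this way. Alternatives were other scaling (RLE, library size), another filter (none, or a minimum of 10 counts per library), a block for replicate number, DESeq2 1.42.0, limma 3.58.1 (voom, or on the normalized table), and each library left out.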

Additional observations from a re-analysis of the deposited data

How the results depend on the processing

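No member that was given an adjusted p had one under 0.05 under any of the alternatives tried. DESeq2 gave none for Tgfbr1 and Acvr2a, and only 4 members were tested with at least 10 counts in every library. Of 74 fitted changes of members under other settings, 68 kept their sign and 6 reversed. With the replicate number as a block Tgfbr1 was at -1.74 and Smad7 at 1.37, with limma-voom Tgfbr2 was at -0.74, Smad7 at 0.83 and Ski at 0.84, and in the normalized table Skil was at 0.19. The cause was not tested. With 1 library left out, 52 of 60 kept their sign, and the ranges that crossed 0 were -1.73 to 0.36 for Tgfb1, -3.38 to 4.91 for Tgfbr1, -0.11 to 2.77 for Tgfbr2, -0.26 to 1.87 for Smad2, -2.33 to 0.33 for Smad4, -2.01 to 3.17 for Smad7, -2.98 to 1.78 for Ski and -0.78 to 0.15 for Skil. The members' median change ran from -1.15 to 0.25, positive only without WT replicate 3, and was 0.19 over the 4 members with at least 10 counts in every library. The number of members above 0 was 3 under TMM, RLE and library-size scaling and 4 under limma-voom, while the median of all genes moved from -0.26 (TMM) to -0.13, 0.10 and 0.26. Members without overlap numbered 0 to 1 with 1 library left out (Acvr2a without Foxm1 HET replicate 1, where 16.3% of all genes did not overlap, and Smad3 without Foxm1 HET replicate 2), and other pathway genes 4 to 11 of 51 against 2, where 15.3% to 22.0% of all genes did not overlap in the same fits. An unadjusted p under 0.05 was reached by Smad3 with limma-voom and in edgeR without Foxm1 HET replicate 2, and by Acvr2a in edgeR without WT replicate 2.

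Over all genes, 27 were called by edgeR with TMM, 10 with RLE, 7 with library size only, 194 by DESeq2 and 4 by limma-voom. None was called with at least 10 counts in every library (157 at an unadjusted p under 0.05, of 2516 tested), with the replicate block (108 unadjusted) or in the normalized table with limma (576 unadjusted), and 0 to 25 with 1 library left out. The count was 0 without WT replicate 1, WT replicate 2 or Foxm1 HET replicate 2, and 12 without WT replicate 3. DESeq2 called 1 other pathway gene, Tgfb3, and gave neither a p nor an adjusted p for Tgfbr1 and Acvr2a. Whether replicate numbers stand for the pairs of mice is not given. Same-numbered WT and Foxm1 HET libraries did not deviate together (r = 0.0162, -0.0253 and -0.0687). With so few libraries and so wide a spread, this cannot exclude a pairing under these or other numbers. The block changed no call of a member, with a median change of -0.54.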
